A study of Mus musculus with 2 samples.

Results

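The genes described here encode subunits of the mitochondrial respiratory chain and of ATP synthase, with some of their close relatives and assembly factors. They were chosen by name: every probe set whose single gene symbol in the platform annotation begins with Nduf, Uqcr or Atp5, is Sdha, Sdhb, Sdhc or Sdhd, or begins with Cox followed by a digit between 4 and 8, leaving out the 8 cytochrome c oxidase genes Cox4i1, Cox4i2, Cox6a1, Cox6a2, Cox7a1, Cox7a2, Cox8a and Cox8b. This gave 166 of the 45101 probe sets on the array and 82 of the 18193 singly named genes. A further 10 probe sets carry a matching symbol together with another one, such as those shared by Ndufb4 and its copies, and were left out.

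The samples were the esophagus of a mouse embryo group labelled BALB/c Myf5:Myod null, that is Myf5-/-:MyoD-/-, and the esophagus of wild-type BALB/c embryos, both at stage E18.5, shortly before birth. Neither group had any other allele or treatment in its labels. Each genotype had 1 array, hybridized with biotin-labelled cRNA from 6 µg of total RNA, and how many embryos gave each RNA is not stated in the labels. With 1 array per genotype no difference below has a replicate check or a test, and each compares 2 RNA samples. Myf5 and Myod1 encode transcription factors that commit cells to the skeletal muscle fate.

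The respiratory chain lies in the inner mitochondrial membrane. Complexes I and II pass electrons from NADH and succinate to ubiquinone, complex III passes them to cytochrome c, and complex IV, cytochrome c oxidase, passes them to oxygen. Complexes I, III and IV pump protons, and ATP synthase, also called complex V, uses the resulting gradient to make ATP. Striated muscle fibers are known for a high content of mitochondria, although every nucleated cell of the esophagus makes these proteins. Most subunits are encoded in the nucleus, and the genes described here are all nuclear.

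The values are MAS5 signals on a linear scale, and each difference is the log2 ratio of the null array over the wild-type array. A low-signal limit of 489, the median of all probe sets that are not controls, was set on both arrays, and lower signals were raised to it. A gene below it on both arrays was treated as not measured, and a gene below it on 1 array has only a bound. Of a gene's probe sets, the one with the highest mean signal was used unless others are named. Probe sets that share a gene give the one error these arrays offer, and their log2 ratios had a pooled SD of 0.56 over 5455 genes of the array and of 0.44 over 43 genes described here. It holds no variation between animals.

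The arrays were checked on their labels first. Myf5 read 496 on the null array and 4072 on the wild-type array. Myod1 read 1698 and 2001 at its brighter probe set, which does not separate the arrays. Whether that probe set lies in the deleted part of the gene is unknown here, so it checks nothing. All 12 striated muscle markers examined read at least 2-fold lower on the null array, with a summed signal of 10092 on the null array and 439562 on the wild-type array. Of 8 smooth muscle markers 6 lay above 0, with a summed signal of 650187 on the null array and 321319 on the wild-type array. Of 7 squamous epithelium markers 5 lay below 0, with a median of -0.27, as the respiratory chain genes mostly did. Among them Sprr3 was 2.81-fold and Krt14 2.46-fold lower, while the summed signal, 437156 on the null array and 374856 on the wild-type array, was carried by Krt4 at 259124 and 173385. Both arrays thus held signal for the tissue named in the labels.

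Markers of other cell types differed too. Of 6 cardiac markers 4 were measured. Actc1, also made in embryonic skeletal muscle, read 6952 on the null array and 82163 on the wild-type array, and Myh7, also made in slow skeletal fibers, 1162 and 11512. Mybpc3 was 1.64-fold and Myh6 at least 1.73-fold higher, and Nppa and Tnni3 lay below the limit on both arrays. Of 5 markers of brown adipocytes, another cell type rich in mitochondria, 3 were measured, with signals of at most 874. Ucp1 was at least 1.61-fold and Elovl3 at least 1.79-fold higher, Ppara was 1.11-fold lower, and Adipoq and Cidea were not measured. Of 4 leukocyte markers 2 were measured: Ptprc read 5010 on the null array and 585 on the wild-type array, 8.57-fold higher, and Csf1r 14108 and 14020. Of 6 markers of lung and stomach epithelium, Tff1 was 1.97-fold and Sftpc 1.68-fold higher, and 4 were not measured. Of 4 enteric neuron markers, Ret was 2.38-fold and Tubb3 at least 1.79-fold lower, Elavl4 read 2068 and 2056, and Uchl1 was not measured. Of the erythroid markers Alas2 was 1.86-fold lower and Hba-a1 at least 1.29-fold higher. The ratio of 3' to 5' control signal, a sign of RNA integrity, was 14.2 on the null array and 12.6 on the wild-type array for beta-actin. For Gapdh it was 6.96 and 10.5. The 3' signal thus exceeded the 5' signal several-fold on both arrays, so good RNA integrity was not shown. The effect of this on the ratios below was not tested.

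Respiratory chain and ATP synthase genes read slightly lower on the null array as a group, with few large differences. Of the 82 genes, 80 were measured, 4 of them as bounds, and 60 of these 80 had a log2 ratio below 0, which is 75%. Among all 13315 measured genes 43.4% did. The median log2 ratio was -0.23, with quartiles of -0.47 and 0.0057, against a median of 0.086 over all measured genes. At the level of probe sets, 104 of 147 measured ones lay below 0, or 70.7%, against 41.7% of all measured probe sets with a single symbol.

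Few genes differed by a large factor. In all, 2 genes (2.5% of the measured ones) were 2-fold lower or more and 0 were 2-fold higher, where 5.36% of all measured genes were lower and 6.01% higher. At 1.5-fold, 15 genes were lower, or 18.8%, against 13.1% of all measured genes, and 4 were higher, or 5%, against 18.8% of all measured genes. The share of lower genes was thus smaller than that of the whole array at 2-fold and larger at 1.5-fold. The share of higher genes was smaller at both. The 1.5-fold comparison varied over ranges of mean signal chosen after the values were seen. Between 2000 and 10000, 30.8% of the genes were lower against 16.2% of other measured genes, and 3.85% higher against 9.52%. Between 10000 and 50000, 12.1% were lower against 15%, and 0% higher against 8.64%. Below 2000, 16.7% were lower against 11.1%, and 16.7% higher against 25.7%. Above 50000, 11.1% were lower against 6.38%, and 11.1% higher against 26.6%. Markers of striated muscle, squamous epithelium, leukocytes and other cell types also differed between the arrays, as given above, and their part in the result was not tested. In whole tissue, fewer cells of a type and less RNA per cell cannot be told apart.

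**Figure D1:**
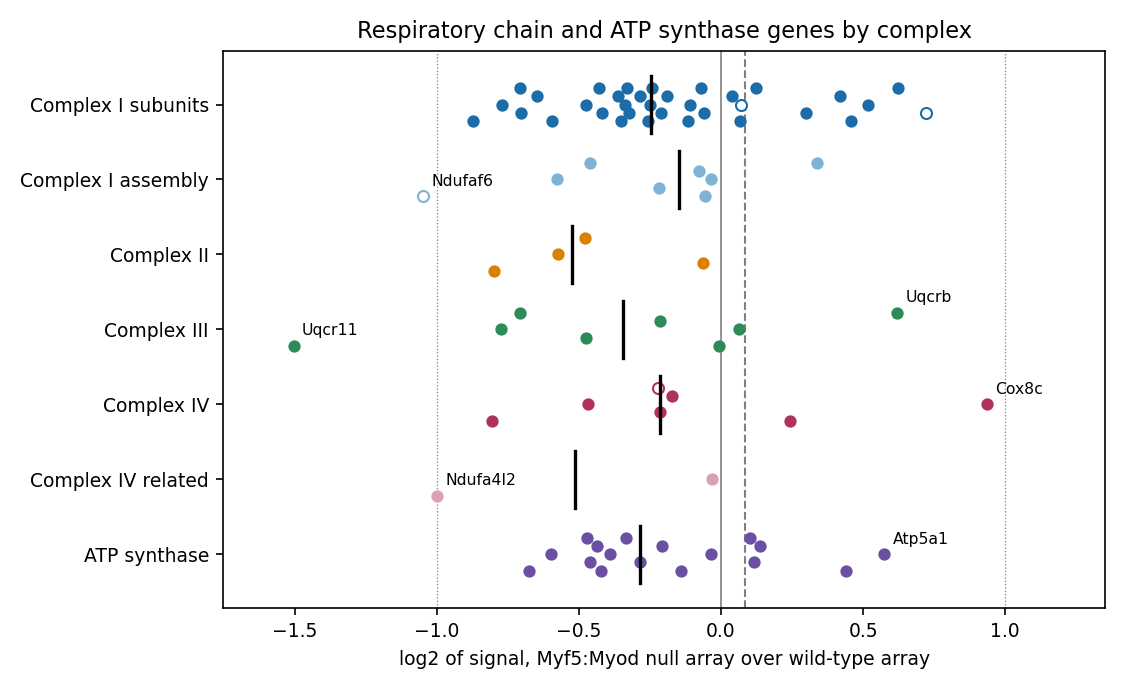
Log2 ratio of MAS5 signal, null array over wild-type array, for the 80 measured genes (1 point per gene, 1 array per genotype), in rows by complex. Open points are bounds, black bars are row medians, the dashed line is the median of all measured genes (0.086) and the dotted lines mark 2-fold. Medians of all 7 rows lie below 0, and 2 genes, Uqcr11 and Ndufaf6, lie at or beyond the 2-fold line.

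The share below 0 varied with signal, as did that of other genes. Between mean signals of 2000 and 10000, 19 of 26 genes lay below 0 (median -0.34), against 2406 of 4319 other measured genes (median -0.075). Between 10000 and 50000, 29 of 33 did (median -0.28), against 686 of 1180 (median -0.089). Above 50000, 4 of 9 did, with a median of 0.24, and other genes that bright had a median of 0.26, with 49 of 188 below 0. The medians of bright genes thus lay above 0 both inside and outside the group. The share below 0 was larger inside it, at 44.4% against 26.1%. Below 2000, 8 of 12 lay below 0 (median -0.21), against 2579 of 7548 (median 0.22). These ranges of signal were chosen after the values were seen.

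**Figure D2:**
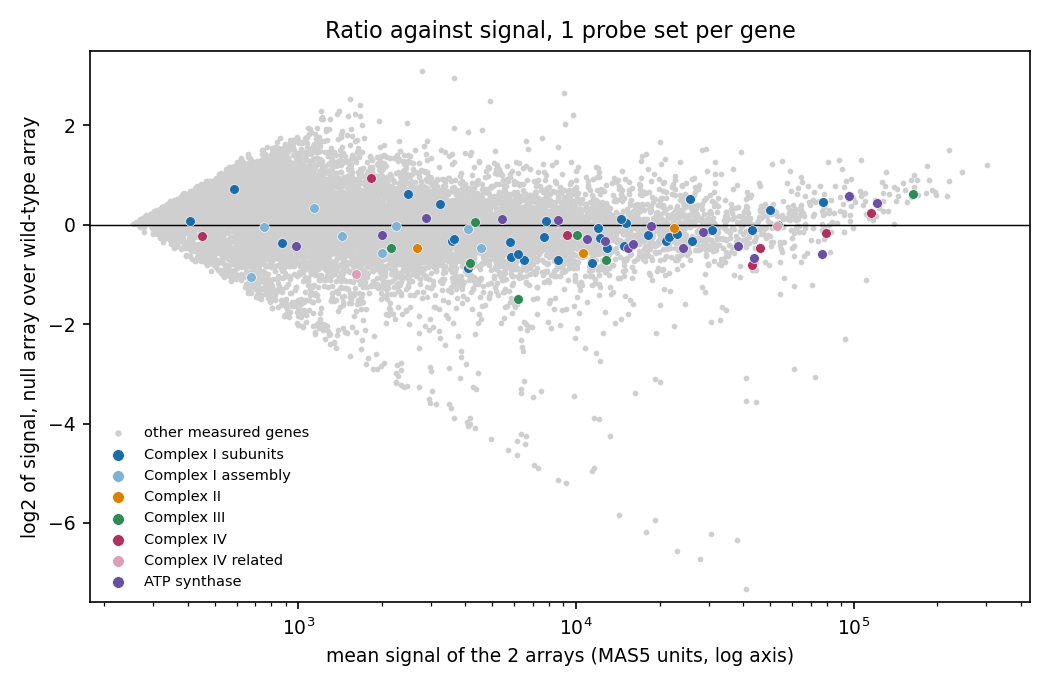
Log2 ratio of the null array over the wild-type array against the mean signal of both arrays (log axis), 1 probe set per gene, with signals under the limit set to it. Grey points are the other measured genes and coloured points the 80 respiratory chain and ATP synthase genes. The coloured points lie mostly below 0 between 2000 and 50000 and on both sides of 0 above 50000, and none comes near the lowest grey points.

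Complex I, NADH dehydrogenase, has a hydrophilic arm in the matrix that takes up NADH and a membrane arm that pumps protons. Of 34 measured genes for its subunits, 24 had a log2 ratio below 0, with a median of -0.25. None was 2-fold apart at its brightest probe set, 6 were 1.5-fold lower or more and 2 were 1.5-fold higher or more. The median was -0.12 when probe sets were combined by their median and -0.10 after quantile normalization. Ndufa11 and Ndufs6 had only probe sets shared with another symbol, so they are not among the 34. Those of Ndufa11 had log2 ratios of 0.65 and 0.86, and that of Ndufs6 0.27. Of the other left-out probe sets, those with Ndufs5 and Ndufab1 stood at -0.44 and -0.50, and that with Ndufb2 at 0.029. Those with Ndufa13 gave a bound of 0.11 and no measured value, and those of Ndufb4 are given below.

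The 6 measured core subunits of the hydrophilic arm, the arm with the flavin and the iron-sulfur clusters, all lay below 0, with a median of -0.38. Ndufs8, which holds a pair of iron-sulfur clusters near the ubiquinone site, read 8405 on the null array and 14343 on the wild-type array, 1.71-fold lower. Over its 6 probe sets the log2 ratio lay between -0.94 and 0.034, and 5 of the 6 were below 0. Ndufs1, the large iron-sulfur subunit, read 4532 on the null array and 7100 on the wild-type array, 1.57-fold lower. Ndufv1, which binds NADH and flavin, read 12692 on the null array and 17071 on the wild-type array, and its 3 probe sets were all below 0. Ndufv2, its iron-sulfur partner, read 23153 and 29245, with 3 probe sets between -0.40 and -0.34. Ndufs3 was 1.22-fold and Ndufs7 1.04-fold lower.

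The accessory subunits of the same arm did not share this. Of 8 measured, 3 lay below 0 and 5 above, with a median of 0.053. Ndufa7 read 3015 on the null array and 1958 on the wild-type array, 1.54-fold higher, but the log2 ratios of its remaining 4 probe sets were 0.18, -0.0062, -0.34 and -0.14, the last of these a bound. Ndufa6 read 3698 on the null array and 2763 on the wild-type array, a log2 ratio of 0.42. Ndufa5 was 1.25-fold lower, but its second probe set read 2079 on the null array and 1247 on the wild-type array, 1.67-fold higher. Ndufa9, which lies where the arms join, also lay below 0. Whether core and accessory subunits differ was not tested, and this grouping was made with the values known. Ndufab1, the mitochondrial acyl carrier protein, was 1.19-fold lower.

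In the membrane arm, 14 of 19 measured genes lay below 0, with a median of -0.24. Ndufb10 was the lowest, at 2887 on the null array and 5287 on the wild-type array, 1.83-fold lower. Ndufb8 read 6535 on the null array and 10658 on the wild-type array, 1.63-fold lower. Its dimmer probe set went the other way, at 1273 on the null array and 570 on the wild-type array, 2.24-fold higher, so the gene has no settled direction. It was the only gene with a second measured probe set past 2-fold. At its brighter probe set Ndufa10 was 1.63-fold lower, and it had a bound of 0.64 on the log2 scale at the other. Ndufb3, with 1 probe set, was 1.51-fold lower.

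The membrane arm also held genes whose brightest probe set read higher. Ndufb1 read 807 on the null array and 366 on the wild-type array, at least 1.65-fold higher, and it counts as measured only through the null array. Ndufa13, also known as GRIM-19, read 30388 on the null array and 21246 on the wild-type array, 1.43-fold higher. Ndufc2 read 54994 on the null array and 44687 on the wild-type array, with log2 ratios of -0.18 and -0.59 at the remaining probe sets. Ndufb4 read 513 on the null array and 302 on the wild-type array, close to the limit, a bound of 0.069. The probe sets it shares with its copies, which were left out, were brighter and went the other way, at 5755 on the null array and 9578 on the wild-type array (-0.74 on the log2 scale) and at -0.28, so its direction is not settled.

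The X-linked genes of the group were Ndufa1 and Ndufb11. Ndufa1, a small subunit needed for assembly of the membrane arm, read 89465 on the null array and 65226 on the wild-type array, a log2 ratio of 0.46. Ndufb11 read 41502 on the null array and 44710 on the wild-type array, 1.08-fold lower. Sex-linked transcripts differed between the arrays: Xist read 24254 on the null array and 42465 on the wild-type array, and the Y-linked Eif2s3y 2402 and 10.6. Their part in the X-linked values was not tested.

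The 8 assembly factors of complex I named by the rule, which help build the enzyme without staying in it, were all measured, and 7 lay below 0, with a median of -0.15. Ndufaf6 read 337 on the null array, below the limit, and 1012 on the wild-type array, at least 2.07-fold lower. It lies at chr4:11048991-11076237 of GRCm38.p6. Ndufaf1 read 1607 on the null array and 2396 on the wild-type array, 1.49-fold lower, and Ndufaf4 3844 and 5291, with both probe sets below 0. Ndufaf8 lay at -0.077, with 0.98 at its other probe set. Ndufaf5 was the 1 gene above 0, at 1277 on the null array and 1010 on the wild-type array.

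Complex II, succinate dehydrogenase, is the enzyme shared by the respiratory chain and the citric acid cycle. All 4 of its genes lay below 0, with a median of -0.53, or -0.26 with probe sets combined by their median. Sdhd, a membrane anchor, read 3019 on the null array and 5256 on the wild-type array, 1.74-fold lower, while its dimmer probe set had a log2 ratio of 0.36. Sdhc, the other anchor, read 2232 on the null array and 3107 on the wild-type array, with 0.15 at its second probe set. Sdhb, the iron-sulfur subunit, read 8531 on the null array and 12699 on the wild-type array, 1.49-fold lower, with 1 probe set. Sdha, the flavoprotein that oxidizes succinate, read 22119 and 23129, 1.05-fold lower, and -0.54 at its second probe set. Of the 3 genes of complex II with 2 measured probe sets, Sdhd and Sdhc had them on opposite sides of 0.

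Complex III, the cytochrome bc1 complex, takes electrons from ubiquinol. Of its 8 genes named by the rule, 6 lay below 0, with a median of -0.34. That median was -0.14 with probe sets combined by their median and -0.031 over all their measured probe sets. The gene of cytochrome c1, another redox subunit, does not match the rule and is not among them. Uqcr11, a small subunit, had the lowest ratio of all 80 genes. It read 3226 on the null array and 9144 on the wild-type array, 2.83-fold lower, with 1 probe set. The gene lies at chr10:80402997-80406821 of GRCm38.p6. The core protein Uqcrc1 read 3054 on the null array and 5225 on the wild-type array, 1.71-fold lower, also with 1 probe set. Uqcrfs1, the Rieske iron-sulfur protein, read 9736 on the null array and 15906 on the wild-type array, 1.63-fold lower. The other core protein, Uqcrc2, read nearly alike on both arrays, at 53406 on the null array and 53599 on the wild-type array.

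The small accessory subunits of complex III went both ways. Uqcrb, which lies at the ubiquinone site, read 198133 on the null array and 128939 on the wild-type array, 1.54-fold higher. Its second probe set read 12499 on the null array and 12318 on the wild-type array, a log2 ratio of 0.021, and after quantile normalization the gene stood at -0.034. Its signal lies where all 45 genes with a wild-type signal above 100000 had a median log2 ratio of 0.59. Uqcr10 read 1806 on the null array and 2512 on the wild-type array, 1.39-fold lower, but its second probe set read 1575 and 791, a log2 ratio of 0.99. Uqcrh, the hinge protein, was 1.16-fold lower and Uqcrq 1.04-fold higher.

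Complex IV was represented by the subunits left after its tissue isoforms were set aside. Of 6 nuclear subunit genes, 5 lay below 0, with a median of -0.22. With the testis isoform included the median was -0.21, and after quantile normalization it was -0.40. Cox6c read 31197 on the null array and 54528 on the wild-type array, 1.75-fold lower, and its second probe set had a log2 ratio of -0.43. Cox5a read 38729 on the null array and 53560 on the wild-type array, with 3 probe sets between -0.66 and -0.47, so all its probe sets agreed in direction. Cox5b read 74789 on the null array and 84293 on the wild-type array, a log2 ratio of -0.17, within a range of -0.49 to 0.30 over 5 probe sets. Cox6b1, which faces the intermembrane space, read 125334 on the null array and 106000 on the wild-type array, a log2 ratio of 0.24, and its second probe set -0.17. Cox7c was measured only through the wild-type array, at 330 on the null array and 570 on the wild-type array, at least 1.16-fold lower. Ndufa4, named for complex I and since assigned to complex IV, was 1.16-fold lower.

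The testis isoforms Cox6b2 and Cox7b2 were the 2 genes not measured. The third, Cox8c, read 2390 on the null array and 1251 on the wild-type array, 1.91-fold higher, with its second probe set below the limit on both arrays. Without these isoforms, 60 of 79 genes lay below 0, with a median of -0.24. Ndufa4l2, a relative of Ndufa4 known to be induced in hypoxia, read 1074 on the null array and 2146 on the wild-type array, 1.998-fold lower and just short of the 2-fold threshold. It was past the threshold with ratios centred on their median (-1.08 on the log2 scale), with quantile normalization (-1.10) and with loess (-1.09), and stood at -0.62 with the limit at the 75th percentile. Cox7a2l, a factor of respiratory supercomplexes, read 52563 and 53707, with all 3 probe sets below 0.

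Among the isoforms of cytochrome c oxidase that the rule leaves out, the muscle form of subunit 6a had the larger difference. Cox6a2, the subunit 6a of heart and skeletal muscle, read 1193 on the null array and 5247 on the wild-type array, 4.40-fold lower, whereas its ubiquitous counterpart Cox6a1 read 60520 and 63492, 1.05-fold lower. Of these 8 isoform genes 5 were measured, 4 of them below 0, with a median of -0.10, and Cox7a1, Cox8b and Cox4i2 were not measured. The 1 gene above 0 was Cox8a, the ubiquitous subunit 8, at 2680 on the null array and 1576 on the wild-type array, 1.70-fold higher, and at least 3.92-fold higher at its second probe set.

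ATP synthase has a catalytic F1 head, a ring of c subunits in the membrane that turns as protons pass, a peripheral stalk that holds the head still, and small membrane subunits. Of its 17 genes, 12 lay below 0, with a median of -0.28, and none was 2-fold apart at any measured probe set. In the peripheral stalk all 4 genes lay below 0, with a median of -0.44. Atp5pb, its subunit b, read 33679 on the null array and 53770 on the wild-type array, a log2 ratio of -0.67. Atp5h, its subunit d, read 61060 on the null array and 92392 on the wild-type array, 1.51-fold lower. Both had a second probe set on the same side, at -0.29 each. Atp5o was 1.22-fold and Atp5j 1.03-fold lower.

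In the F1 head, 3 of 5 genes lay below 0. Atp5b, the catalytic beta subunit, read 20293 on the null array and 28158 on the wild-type array, 1.39-fold lower. Atp5c1, the rotating gamma subunit, read 32883 on the null array and 44040 on the wild-type array, with -0.47 at its second probe set, and Atp5d was 1.26-fold lower. Atp5a1, the alpha subunit, read 115473 on the null array and 77582 on the wild-type array, 1.49-fold higher. Its next probe set read 15239 on the null array and 29424 on the wild-type array, a log2 ratio of -0.95, and the third 5085 and 3432, a log2 ratio of 0.57. The gene therefore has no settled direction, and without probe sets of IDs ending in _x_at or _s_at it stood at -0.95. Atp5e was 1.08-fold higher.

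The c subunit is made from 3 genes, which encode the same mature protein behind different import sequences. Atp5g3 read 140037 on the null array and 103115 on the wild-type array, a log2 ratio of 0.44. Atp5g2 read 3021 on the null array and 2745 on the wild-type array, and Atp5g1 1855 and 2141, log2 ratios of 0.14 and -0.21. All 3 ratios were within the pooled SD of 0.56 over the array, and that of Atp5g3 was as large as the pooled SD of 0.44 over the genes described here. Of the 5 small membrane subunits, 4 lay below 0. Atp5md was the lowest, at 12917 on the null array and 17757 on the wild-type array, and Atp5mpl lay above 0, at 8901 and 8297. Atp5k had a log2 ratio of -0.39, but its next probe set, nearly as bright, had 0.22 and the third 0.084. Atp5j2 read 27205 on the null array and 30001 on the wild-type array, and its dimmest probe set 1682 and 842, a log2 ratio of 0.998.

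Agreement between probe sets was examined over the whole group. Of 43 genes with at least 2 measured probe sets, 22 had them on both sides of 0, which is 51.2%, near the 52.3% of all 5455 such genes. In the other 21, all probe sets lay below 0 for 19 genes and above 0 for 2. The share with all probe sets below 0 was 44.2%, against 17.5% of all such genes on the array. Ndufv1, Ndufv2, Cox5a and Cox7a2l were the genes with 3 or more measured probe sets that all lay below 0, and Uqcrq was the 1 whose 3 all lay above it.

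**Figure D3:**
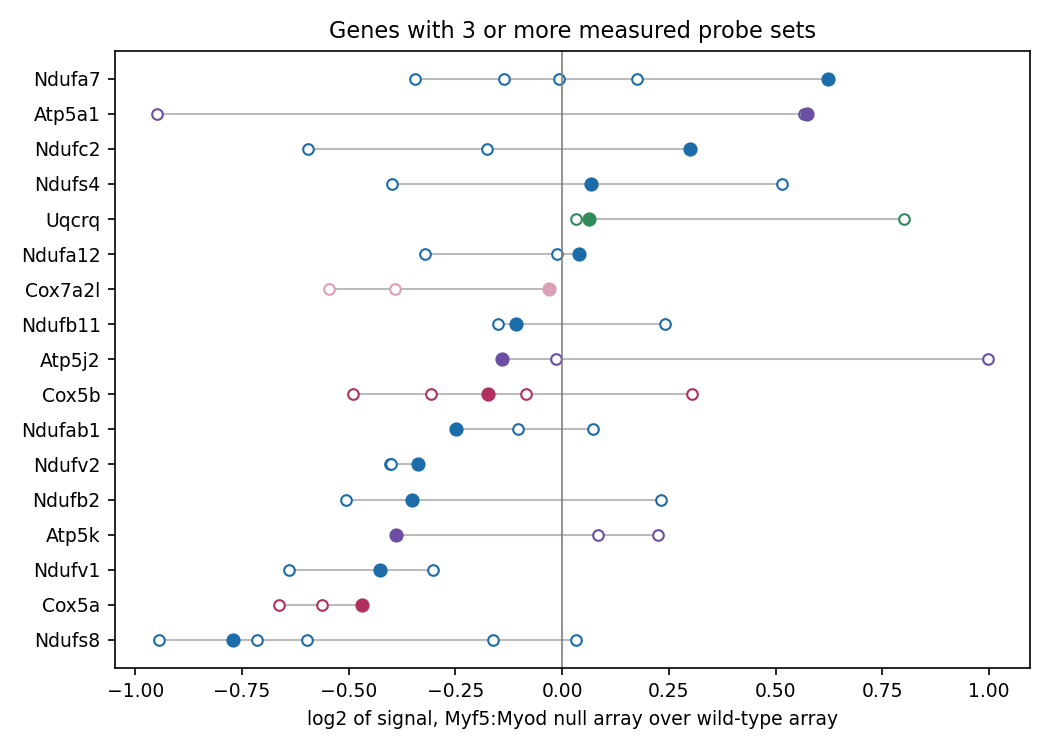
Log2 ratio of the null array over the wild-type array for each measured probe set of the 17 genes that have 3 or more, ordered by the ratio of the brightest probe set (filled). Open points are the other probe sets and grey lines join the probe sets of 1 gene. Lines for Ndufv2, Ndufv1 and Cox5a stay left of 0, and that of Atp5a1 runs from -0.95 to 0.57.

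Promoter sequence was examined because nuclear genes of the respiratory chain are known targets of NRF1, of the ETS factor GABPA, of YY1 and of the estrogen-related receptors, and because Myod1 binds E-boxes. RefSeq promoters of GRCm38.p6, from 250 bases before to 50 bases after the start of transcription, were at hand for 69 of the 82 genes and for 10578 other measured genes. Letters were searched on both strands, and none of the 5 motifs contains another. The NRF1 letters, GCGCA and GCGC with 1 base of any kind between them, occurred for 16 of the 69 genes, or 23.2%, against 10.3% of the other measured genes and 5.19% of all 27025 promoters. The ETS letters CCGGAAG occurred for 17, or 24.6%, against 17.9% and 9.93%, and the YY1 letters AAGATGGCG for 7, or 10.1%, against 3.08% and 1.64%. The receptor letters TCAAGGTCA were found for 2, or 2.9%, against 0.369% and 0.466%. The E-box CAGCTG was found for 5, or 7.25%, against 18.6% and 18.3%. Only this form of the E-box was searched for, so the shares do not cover E-boxes with other middle letters.

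The log2 ratios of genes with and without the letters were set side by side. The 16 genes with the NRF1 letters had a median log2 ratio of -0.33 and the 51 measured genes without them -0.22. For the ETS letters the medians were -0.44 over 17 genes and -0.22 over 50. For the YY1 letters they were -0.077 over 7 genes and -0.30 over 60. For the E-box form CAGCTG they were -0.36 over 5 genes and -0.22 over 62, and for the receptor letters -0.18 over 2 and -0.25 over 65. A match is a description of letters and not a binding site.

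The promoters below are those of Uqcr11, the lowest gene, of Uqcrc1 and Sdhb, which also read lower, and of Atp5g3, which read higher. All of them hold matches and do not stand for genes without any. Uqcrfs1, Ndufb8 and Ndufa10, with lower ratios than Sdhb, held no match. Neither did Ndufb1, Ndufa7 and Ndufa13, with higher ratios than Atp5g3. Capitals mark matches to the motifs: ETS letters in Uqcr11 and Sdhb, NRF1 letters in Uqcrc1, and the receptor letters followed by NRF1 letters in Atp5g3. All are written 5′ to 3′ on the strand of the gene, which is minus for Uqcr11 (chr10:80406772-80407071) and Atp5g3 (chr2:73911277-73911576) and plus for Uqcrc1 (chr9:108936398-108936697) and Sdhb (chr4:140961021-140961320).
Uqcr11: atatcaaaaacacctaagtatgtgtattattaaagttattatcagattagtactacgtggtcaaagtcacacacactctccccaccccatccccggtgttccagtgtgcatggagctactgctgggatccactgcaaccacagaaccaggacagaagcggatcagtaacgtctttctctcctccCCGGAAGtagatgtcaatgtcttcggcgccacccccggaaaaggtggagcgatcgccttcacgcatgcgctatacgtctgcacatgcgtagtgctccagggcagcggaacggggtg
Uqcrc1: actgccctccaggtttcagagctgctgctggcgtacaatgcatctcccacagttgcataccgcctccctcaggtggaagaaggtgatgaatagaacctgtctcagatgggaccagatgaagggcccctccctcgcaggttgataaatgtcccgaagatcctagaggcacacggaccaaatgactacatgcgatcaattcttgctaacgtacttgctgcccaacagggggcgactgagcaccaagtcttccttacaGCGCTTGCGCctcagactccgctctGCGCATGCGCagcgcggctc
Sdhb: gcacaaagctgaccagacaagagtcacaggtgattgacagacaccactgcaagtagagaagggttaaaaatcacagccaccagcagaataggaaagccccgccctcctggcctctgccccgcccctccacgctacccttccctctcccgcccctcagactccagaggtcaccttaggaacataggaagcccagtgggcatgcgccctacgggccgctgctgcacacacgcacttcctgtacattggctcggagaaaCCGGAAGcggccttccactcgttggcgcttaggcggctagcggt
Atp5g3: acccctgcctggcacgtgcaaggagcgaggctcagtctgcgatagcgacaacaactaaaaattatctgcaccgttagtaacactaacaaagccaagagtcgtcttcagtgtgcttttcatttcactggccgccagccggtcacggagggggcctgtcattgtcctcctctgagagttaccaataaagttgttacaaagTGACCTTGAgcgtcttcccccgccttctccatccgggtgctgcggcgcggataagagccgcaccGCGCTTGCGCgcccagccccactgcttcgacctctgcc

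The NRF1 letters thus stood near the start used here for both Uqcrc1, at 1.71-fold lower, and Atp5g3, at 1.36-fold higher. The promoter printed for Atp5g3 lies within the RefSeq span of the gene (chr2:73908447-73912464), so its start is not the outermost one.

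Other mitochondrial genes were compared by lists. Of 17 measured genes of the citric acid cycle and pyruvate dehydrogenase, 16 lay below 0, with a median of -0.43, 2 were at least 2-fold lower and 0 higher. Pdhb, a subunit of pyruvate dehydrogenase, read 10242 on the null array and 21485 on the wild-type array, 2.10-fold lower. Idh3a, the catalytic subunit of isocitrate dehydrogenase, read 5740 on the null array and 11723 on the wild-type array, 2.04-fold lower. Citrate synthase, Cs, was the 1 gene above 0, at 65085 on the null array and 46487 on the wild-type array. This list lay below 0 more uniformly than the respiratory chain genes, although the difference was not tested.

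Mobile electron carriers and ubiquinone synthesis had 9 of 16 measured genes below 0, with a median of -0.29, 2 at least 2-fold lower and 0 higher. Coq8a, a kinase-like protein of ubiquinone synthesis, read 396 on the null array and 2027 on the wild-type array, at least 4.14-fold lower. Coq5, a methyltransferase of the same pathway, read 918 on the null array and 2391 on the wild-type array, 2.61-fold lower. Cycs, cytochrome c, read 23562 and 39002, 1.66-fold lower, and was named after its value was seen.

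Of 11 measured mitochondrial carriers and porins, 8 lay below 0, with a median of -0.25 and none 2-fold apart. The brightest were the phosphate carrier Slc25a3, the adenine nucleotide carrier Slc25a4 and the porin Vdac1, with log2 ratios of 0.17, 0.22 and 0.78, all above 0. Of 75 measured mitochondrial ribosomal protein genes, 45 lay below 0, with a median of -0.14, and 7 were at least 2-fold lower and 0 higher. Mrps34 read 640 on the null array and 2140 on the wild-type array, 3.35-fold lower, Mrpl19 290 and 1494, at least 3.06-fold lower, and Mrpl58 1079 and 3200, 2.97-fold lower.

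Assembly factors outside the naming rule lay on both sides of 0, 18 of 34 below it, with a median of -0.053. Of these 3 were at least 2-fold lower and 0 higher, namely Uqcc2 of complex III (2.14-fold), Coa7 (2.04-fold) and Cox19 (2.02-fold) of complex IV. Regulators of mitochondrial biogenesis had 12 of 21 below 0, with a median of -0.041. Pprc1, a coactivator of the PGC-1 family, read 1573 on the null array and 4031 on the wild-type array, 2.56-fold lower. Its relative Ppargc1a read 1539 on the null array and 772 on the wild-type array, 1.99-fold higher, and Nrf1 2460 and 1465, 1.68-fold higher, both named after their values were seen. Gabpa and Tfam had log2 ratios of 0.24 and -0.26. The inhibitor of ATP synthase, Atpif1, had a log2 ratio of 0.26. The mitochondrially encoded complex I gene ND5 read 113456 on the null array and 47641 on the wild-type array, 2.38-fold higher, at 1 probe set. The 188 genes outside the group with a mean signal above 50000, ND5 among them, had a median log2 ratio of 0.26. Of these, 13 were at least 2-fold higher. The part of brightness in the ND5 value was not tested.

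**Figure D4:**
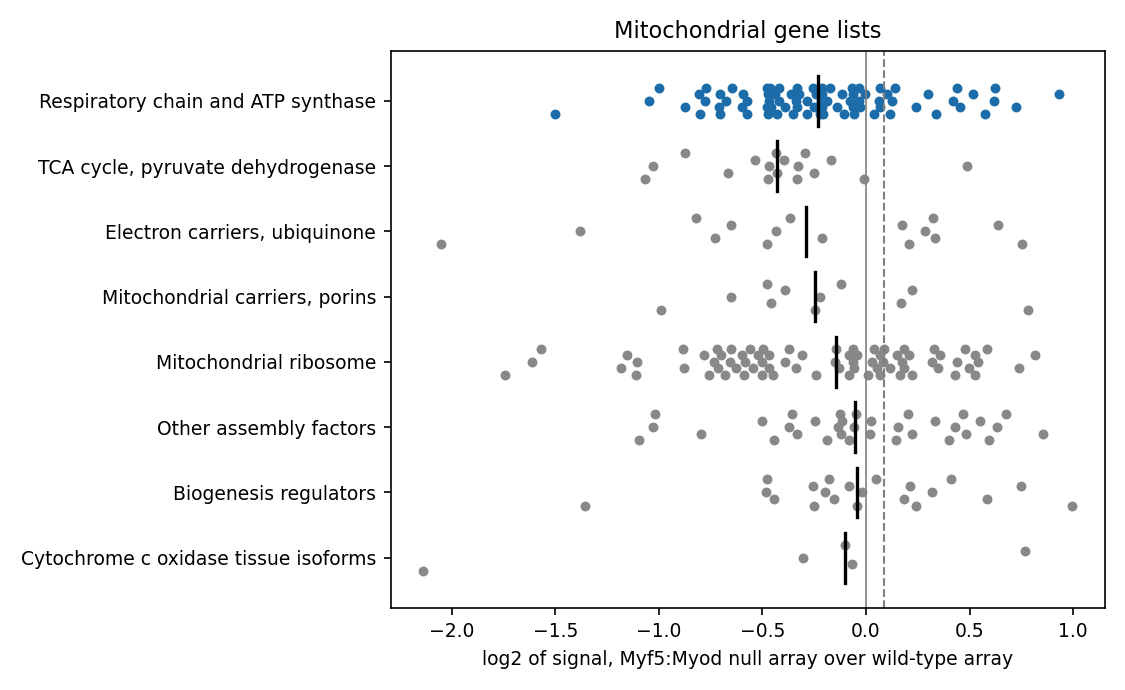
Log2 ratio of the null array over the wild-type array for the measured genes of 8 mitochondrial lists (1 point per gene), with black bars at list medians and a dashed line at the median of all measured genes. All 8 medians lie below 0, from -0.43 for the citric acid cycle and pyruvate dehydrogenase to -0.041 for the biogenesis regulators.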

How the data were processed

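The authors deposited 1 signal intensity per probe set on a linear scale, which the submitters' processing notes credit to MAS5, Affymetrix's way of combining a probe set's probes. The sources used here give neither its version nor its settings. With 2% of probe sets trimmed at either end, both arrays' deposited intensities averaged 1500. Gene symbols came from GEO's platform annotation, and all 82 genes matched RefSeq (GRCm38.p6) by Entrez ID.

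From these values, signals below the limit were raised to it, log2 ratios were taken, and 1 probe set per gene was kept. Control probe sets (64) were left out. No test was run, since each genotype has 1 array, and the number of arrays limits the precision. Text names genes by complex: the 3 brightest, the 2 lowest and 2 highest ratios, those past 2-fold at the brightest or at another measured probe set, and X-linked ones. From other lists it names up to 3 past 2-fold, or else the 3 brightest. Other genes are named as examples. The members and lists were chosen with earlier results of these data known, and the division of complexes into parts was made after the values were seen. The steps were tested on simulated data with shifts well past 2-fold, which says nothing of differences as small as the group's median. Alternatives were median centring, quantile normalization, loess (span 0.3), limits at the 25th and 75th percentiles, a pseudocount of 16 in place of a limit, probe sets combined by their median, omission of _x_at and _s_at probe sets, every probe set, and 1.5-fold. Python 3.11.15, numpy 2.4.6, pandas 2.3.3, statsmodels 0.14.6 and matplotlib 3.10.9 were used.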

Additional observations from a re-analysis of the deposited data

How the results depend on the processing

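The median log2 ratio of the respiratory chain and ATP synthase genes stayed below 0 under each of 9 other settings, from -0.32 with ratios centred on their median to -0.17 with probe sets combined by their median, and 70.9% to 80% of the measured genes, or 70.7% of the measured probe sets, lay below 0. Over the whole array that share was 39.8% to 52.8%. The median of all genes, 0.086 as reported, was lowest at -0.033 (limit at the 75th percentile) and highest at 0.17 (no limit). The group's median minus it was between -0.40 and -0.21. The complex I median was -0.10 with quantile normalization and -0.12 with the median of probe sets. That of complex III was -0.14 with the median of probe sets and -0.031 over every measured probe set. Complex II moved to -0.26 with the median of probe sets, complex IV to -0.40 with quantile normalization and to -0.34 without _x_at and _s_at probe sets, and ATP synthase to -0.17 with quantile normalization. The cause was not tested. Genes at least 2-fold lower numbered 1 with the limit at the 75th percentile, where Ndufaf6 was no longer measured, and 2 or 3 in the other settings at 2-fold. Genes at least 2-fold higher numbered 1 with the limit at the 25th percentile, where Ndufb1 passed, 2 with no limit and a pseudocount of 16, and 1 over every measured probe set, against 0 in the main setting. At 1.5-fold, 15 were lower and 4 higher. Opposite signs to the main setting were seen for at most 9 of 80 genes, with the median of probe sets. No paired analysis was possible because each genotype has 1 array, and for the same reason no array could be left out. Low signal limits Ndufb1, Ndufb4, Ndufaf6 and Cox7c, whose ratios are bounds.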
